A study of Xenopus laevis with 16 samples.

Results

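Mesendoderm and organizer transcription factors were followed with 7 probes, chosen by name out of 21495 on the array. They read Xbra, Eomes (array name LOC495078), Mix.1, Mix.2 (array name mix.2-A), gsc (array name LOC397748), not (array name LOC397703) and Xlim-1. RNA came from Xenopus laevis whole embryos and animal caps at stage 9 (late blastula) and stage 10 (early gastrula). Each of the 8 groups held 2 biological replicates, and each sample pooled 3 embryos or 25 caps. Embryos received 60 ng of morpholino in each blastomere at the 2-cell stage, either a control morpholino or PVD2, a mixture against the POUV genes Xlpou25, Xlpou60 and Xlpou91, which are the frog relatives of mammalian Oct4. Every sample was injected. Morpholinos act on RNA without removing it, so the array level of the targeted genes does not check the labels. Cy3 carried the sample and Cy5 a common reference pooled from whole embryos of many stages, and values below are log2 of sample over reference unless stated. Scanner output was used for 15 arrays. The second PVD2 cap array of stage 10 entered only through the processed value table, so that group is 1 array in the values below.

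In the amphibian blastula, Nodal-related signals from vegetal cells induce mesoderm and endoderm in the cells above them, while the animal cap stays ectodermal unless induced. T-box factors and homeodomain factors are among the earliest genes to respond. The dorsal part of the mesoderm becomes the Spemann organizer, which expresses its own homeodomain factors and secretes antagonists of BMP and Wnt.

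Xbra is the frog Brachyury gene, a T-box factor of the whole marginal zone. Eomes is a second T-box factor, and Mix.1 and Mix.2 are paired-type homeodomain factors of mesendoderm. RefSeq gives 1 gene name, mix1, to the Mix.1 and Mix.2 probes, so these near-identical copies may share signal. The genes gsc, not and Xlim-1 encode homeodomain factors of the organizer, gsc a repressor, not a factor of the notochord lineage and Xlim-1 a LIM-domain protein.

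Signal differed among the probes. Xbra, Eomes, Mix.2 and not were well above background in Cy3 on all 15 arrays, Mix.1 on 14 and Xlim-1 on 12, whereas gsc reached that level on 3. No probe was saturated. Across arrays, 49.95% to 63.6% of probes were well above background. The caps lay on 2 slides and the embryos on 2 others, scanned on different days, so tissue cannot be told apart from slide and scan day. Each slide carried all 4 combinations of stage and morpholino for 1 tissue and 1 replicate number, apart from the array not used. Nothing in the labels ties replicates to separate parents, and p-values measure the spread between these pools.

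**Figure D1:**
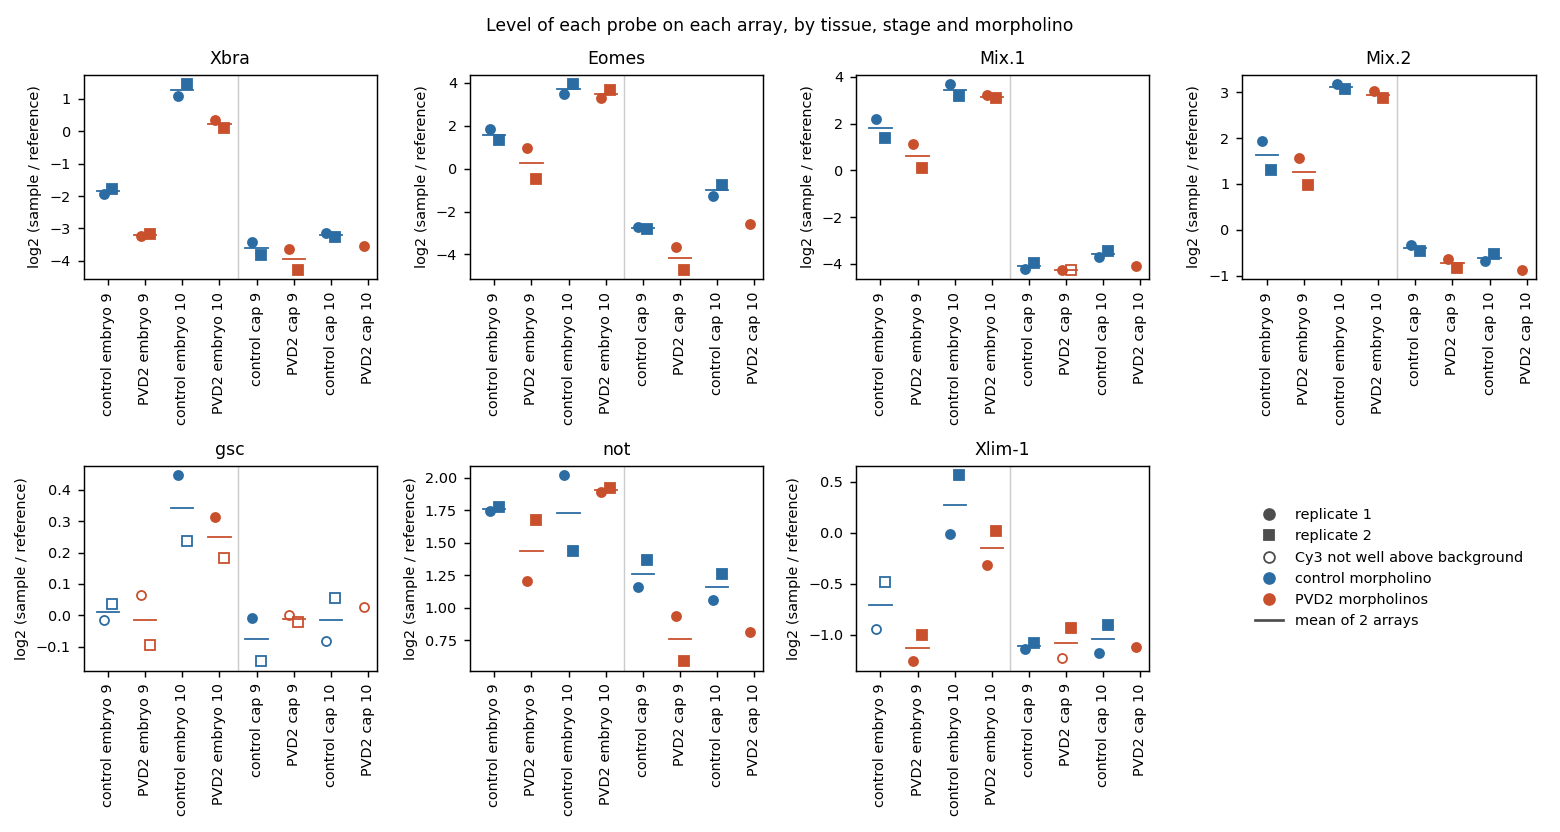
Log2 ratio of sample to reference (vertical axis) for each of the 7 probes on each of 15 arrays, by group (horizontal axis, with the stage number last); circles are replicate 1, squares replicate 2, open symbols are not well above background and lines are means of 2 arrays. Xbra, Eomes, Mix.1 and Mix.2 sit lower in every cap group than in embryos of the same stage. The dim gsc probe, well above background on 3 arrays, spans -0.15 to 0.45. That span depends on the processing, since control caps and embryos of stage 10 differ by -2.80 in the processed value table.

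The question of where these genes are expressed was addressed by comparing control caps with control embryos. Xbra, Eomes, Mix.1 and Mix.2 were lower in caps at both stages, and Xlim-1 was lower at stage 10. The difference was widest for Mix.1, at 58.5-fold at stage 9 and 129-fold at stage 10. The size of these folds depends on the processing, since Mix.1 was dim in control caps (Cy3 level 6.59 to 7.14, log2). Over all alternatives its log2 difference ran from -7.16 to -4.95 at stage 9 and from -7.66 to -6.24 at stage 10. Differences for gsc and not did not pass the test at either stage.

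Mix.1 read 2.2 and 1.39 in control embryos of stage 9 and 3.70 and 3.18 at stage 10. In control caps it read -4.20 and -3.95 at stage 9, and -3.70 and -3.46 at stage 10. Caps and embryos did not overlap at either stage, as held for 26.7% of all probes lower in caps at stage 9 and 25.8% at stage 10. The difference was -5.87 ± 0.35 (SE, limma, adjusted p = 5.41e-05) at stage 9 and -7.02 ± 0.35 (limma, adjusted p = 1.61e-05) at stage 10.

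Eomes read 1.83 and 1.35 in control embryos of stage 9, and -2.74 and -2.83 in control caps. At stage 10 it read 3.46 and 3.96 in embryos and -1.25 and -0.78 in caps. All embryo values were above all cap values, as for those 26.7% and 25.8% of all probes. The differences were -4.37 ± 0.48 (SE, limma, adjusted p = 0.000914) and -4.73 ± 0.48 (limma, adjusted p = 0.000657). The other Eomes homeolog on the array, eomes.L, which was not among the 7 probes, differed by -3.89 ± 0.53 and -4.74 ± 0.53.

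Mix.2 read 1.95 and 1.31 in control embryos of stage 9 and -0.33 and -0.45 in control caps. At stage 10 the embryos read 3.19 and 3.07 and the caps -0.69 and -0.54. The differences were -2.02 ± 0.23 (SE, limma, adjusted p = 0.00102) and -3.74 ± 0.23 (limma, adjusted p = 3.29e-05) and the tissues did not overlap, as for 26.7% and 25.8% of all probes.

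Xbra read -1.94 and -1.77 in control embryos of stage 9 and -3.43 and -3.80 in control caps. At stage 10 the embryos read 1.09 and 1.46 and the caps -3.13 and -3.27. Xbra was thus 3.39-fold lower in caps at stage 9 (-1.76 ± 0.22, SE, limma, adjusted p = 0.00154) and 22.3-fold lower at stage 10 (-4.48 ± 0.22, limma, adjusted p = 1.60e-05). Xbra was also dim in control caps (Cy3 level 6.78 to 7.44, log2). Over all alternatives its difference ran from -1.97 to -1.15 at stage 9 and from -4.81 to -4.00 at stage 10. The stage 9 call was lost with the local background as scanned (-1.21, limma, adjusted p = 0.395). The related Brachyury copy bra3 was well above background on few arrays and differed by -0.49 ± 0.13 and -0.41 ± 0.13.

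Xlim-1 was not well above background on either control embryo array of stage 9, and no fold is given there. Its Cy3 level on those arrays, 7.1 and 7.34 (log2), was above the 6.56 to 7.05 of cap arrays and stage 9 PVD2 embryo arrays where it did count as above background, and both arrays had the lowest shares of probes above background (49.95% and 52.0%). At stage 10 it read -0.02 and 0.56 in control embryos and -1.18 and -0.90 in control caps, a difference of -1.31 ± 0.23 (SE, limma, adjusted p = 0.00787). That call was lost without control embryo replicate 2 (adjusted p = 0.0543) or control cap replicate 1 (adjusted p = 0.0595) of stage 10, and with the local background as scanned (adjusted p = 0.0791). The probe for not, well above background on every array, read 1.74 and 1.78 in control embryos of stage 9 and 1.16 and 1.37 in control caps, and 2.02 and 1.43 in embryos of stage 10 against 1.06 and 1.26 in caps. The differences of -0.50 ± 0.21 and -0.56 ± 0.21 (limma, adjusted p = 0.177 and 0.139) did not pass, and the groups did not overlap, as held for 26.7% and 25.8% of all probes. For gsc, above background on 1 control embryo array and no control cap array of stage 10, no fold is given. Its mean Cy3 level there was 6.45 in embryos and 6.21 in caps (log2). The fitted difference of the log2 ratio, -0.35 ± 0.10, did not pass (limma, adjusted p = 0.0538). It passed with offset 16 (-0.69, adjusted p = 0.0457), median centring (-0.66, adjusted p = 0.0410) and trend and robust settings (adjusted p = 0.0418). It also passed with the scanner's ratio (-2.80, adjusted p = 0.0178) and the processed value table (-2.80, adjusted p = 0.00700), so its size depends on the processing.

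Of the 7 probes, 4 passed at stage 9 and 5 at stage 10, all lower in caps. Over all probes 13.0% passed at stage 9 in either direction and 10.4% at stage 10. The share lower in caps was 7.92% and 5.52%. The median difference of the 7 probes was -1.76 at stage 9 and -3.74 at stage 10, beside -0.01 and 0.00 over all probes tested. With the replicate number as a block, Xlim-1 also passed at stage 9 (adjusted p = 0.0281) and gsc at stage 10 (adjusted p = 0.0251). Leaving the local background as scanned left 2 of the 7 passing at stage 9, Eomes and Mix.1.

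**Figure D2:**
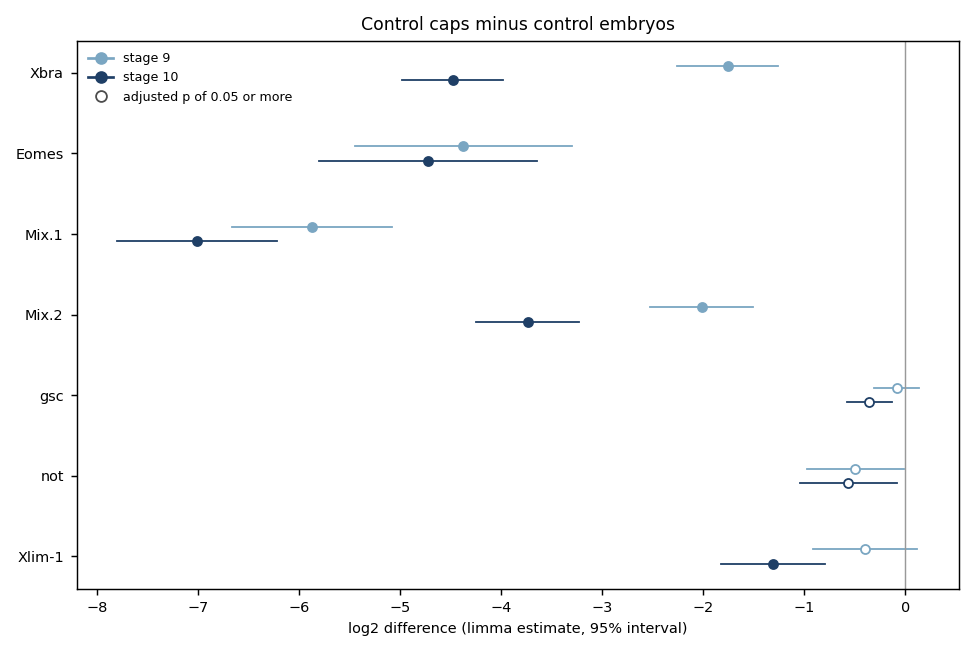
Log2 difference, control caps minus control embryos (horizontal axis), for each probe at stage 9 and stage 10, with 95% intervals from limma; filled points passed an adjusted p of 0.05. Mix.1 at -7.02 lies farthest from 0. The points of not and of the dim gsc probe lie near 0, and the size for gsc depends on the processing.

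Other genes of the same territories were read from fixed lists. Among 15 probes for other endoderm and mesendoderm factors, 12 were lower in caps at stage 9 and 13 at stage 10, and none was higher. They included Bix4 (-5.82 ± 0.34 at stage 9), a relative of Mix, and Xsox17-beta (-5.12 ± 0.33 at stage 10), an HMG-box factor of endoderm. Among 10 probes for secreted organizer factors, 7 and 9 were lower, led at stage 10 by Frzb-1, a Wnt antagonist, at -7.53 ± 0.42. Of 8 probes for other organizer factors, 4 were lower at each stage, including hhex-A at -5.84 ± 0.43 at stage 10, while fkh-5 went from -0.94 ± 0.18 at stage 9 to 0.76 ± 0.18 at stage 10. Of 26 probes for mesoderm factors, 10 were lower at each stage and 1 was higher at stage 10. Snail (array name sna), which drives cell movement in mesoderm, differed by -3.27 ± 0.26 at stage 10.

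Signals and cofactors were mixed. Of 16 probes for Nodal and related inducers with their effectors, 7 were lower in caps at each stage and 2 and 1 were higher. The strongest was gdf3-A-prov, a TGF-beta ligand, at -5.73 ± 0.38 at stage 9. The 7 lower probes include eomes.L, the Eomes homeolog given above, which is a transcription factor and not a signal. Of 13 FGF and Wnt probes, 7 were lower at each stage and 1 was higher at stage 9, and among those lower was FGF-8b at -3.24 ± 0.24 at stage 10. Of 6 cofactor probes, for LIM-domain partners and for a Groucho and a TCF repressor, 1 was lower at each stage.

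The tissue labels were checked against marker lists. Endoderm markers averaged -2.77 to -2.39 in control caps and -1.25 to 0.63 in control embryos, and 8 and 9 of 11 were lower in caps. Germ plasm markers averaged -2.38 to -2.17 in control caps and -0.47 to -0.15 in control embryos. Ectoderm markers overlapped, at -0.26 to 0.55 and -0.18 to 0.69. In pooled tissue, fewer cells of a type and less RNA per cell cannot be told apart.

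The second comparison set stage 10 against stage 9. In control embryos Xbra, Mix.2 and Mix.1 rose, and in PVD2 embryos Xbra, Eomes, Mix.1 and Mix.2 rose. In caps none of the 7 probes passed, in control or in PVD2. Over all probes, 2.70% passed in control embryos (1.17% higher at stage 10), 2.39% in PVD2 embryos (1.2% higher), 1.86% in control caps and 0.783% in PVD2 caps.

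Xbra rose most in control embryos, by 3.13 ± 0.22 (SE, 8.78-fold, limma, adjusted p = 0.000314), from the values given above. Mix.2 rose by 1.50 ± 0.23 (limma, adjusted p = 0.00899) and Mix.1 by 1.64 ± 0.35 (limma, adjusted p = 0.0440). Eomes differed by 2.12 ± 0.48 (limma, adjusted p = 0.0555). Of the related copies, eomes.L differed by 1.71 ± 0.53 (limma, adjusted p = 0.180) and the dim bra3 by 0.11 ± 0.13 (limma, adjusted p = 0.852). The probe for not differed by -0.03 ± 0.21 (limma, adjusted p = 0.984). For the dim gsc probe the fitted difference, 0.33 ± 0.10 (limma, adjusted p = 0.161), did not pass. The gsc difference passed with the processed value table (2.075, adjusted p = 0.0418). Xlim-1 differed by 0.99 ± 0.23 (limma, adjusted p = 0.0614), with stage 9 not well above background. It passed with offset 16, without background correction, with Cy3 alone (1.43, adjusted p = 0.00548), with the scanner's ratio (2.55, adjusted p = 0.0222), with the processed value table (2.55, adjusted p = 0.0155) and with dim probes left out. The Mix.1 call was lost with the scanner's ratio (adjusted p = 0.0998) and with that table (adjusted p = 0.0631). With the replicate number as a block, 5 of the 7 passed in control embryos in place of 3, Eomes (adjusted p = 0.0197) and Xlim-1 (adjusted p = 0.000732) being added. The Mix.1 call was also lost when any 1 of 11 arrays was left out (adjusted p up to 0.246), and that of Mix.2 without either control embryo array of stage 10 (adjusted p = 0.0641 and 0.0508). Without control embryo replicate 2 of stage 10, 1 of the 7 passed, and with the local background as scanned 1 passed.

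In PVD2 embryos Xbra went from -3.24 and -3.16 at stage 9 to 0.36 and 0.10 at stage 10, a rise of 3.42 ± 0.22 (SE, limma, adjusted p = 0.000255). Eomes went from 0.97 and -0.46 to 3.29 and 3.68, a rise of 3.23 ± 0.48 (limma, adjusted p = 0.00911). Mix.1 went from 1.14 and 0.08 to 3.21 and 3.09 (2.54 ± 0.35, limma, adjusted p = 0.00679). Stages did not overlap for any of these probes, as held for 20.2% of all probes higher at stage 10. Mix.2 went from 1.56 and 0.97 to 3.03 and 2.88, a rise of 1.69 ± 0.23 (limma, adjusted p = 0.00596). With the replicate number as a block Xlim-1 passed as well (adjusted p = 0.000972). The Eomes call was lost without PVD2 embryo replicate 2 of stage 10 (adjusted p = 0.0718). Of the 4 calls, 2 held without PVD2 embryo replicate 2 of stage 9, and 1 held without PVD2 embryo replicate 1 of stage 10 or with the local background as scanned.

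In control caps Eomes differed most between stages, at 1.77 ± 0.48 (limma, adjusted p = 0.149). The cap values of the 2 stages did not overlap, as for 20.6% of all probes higher at stage 10. Xbra differed by 0.42 ± 0.22 in control caps (limma, adjusted p = 0.694), Mix.1 by 0.50 ± 0.35 and Mix.2 by -0.22 ± 0.23. In PVD2 caps, with 1 array at stage 10, Eomes differed by 1.60 ± 0.58 and Xbra by 0.41 ± 0.27.

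The stage change was then compared between tissues. Xbra changed less in control caps than in control embryos, by -2.72 ± 0.31 (SE, limma, adjusted p = 0.0293), beside 0.0466% of all probes past the threshold, 0.0326% in this direction. Mix.2 differed by -1.72 ± 0.32 (limma, adjusted p = 0.181), and passed with the replicate number as a block (adjusted p = 0.0224). Eomes differed by only -0.35 ± 0.68, which did not pass. The Xbra call was lost when any 1 of 10 arrays was left out (adjusted p 0.0525 to 0.159), and with the local background as scanned (adjusted p = 0.975), while the difference stayed between -3.26 and -2.53 in all alternatives.

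**Figure D3:**
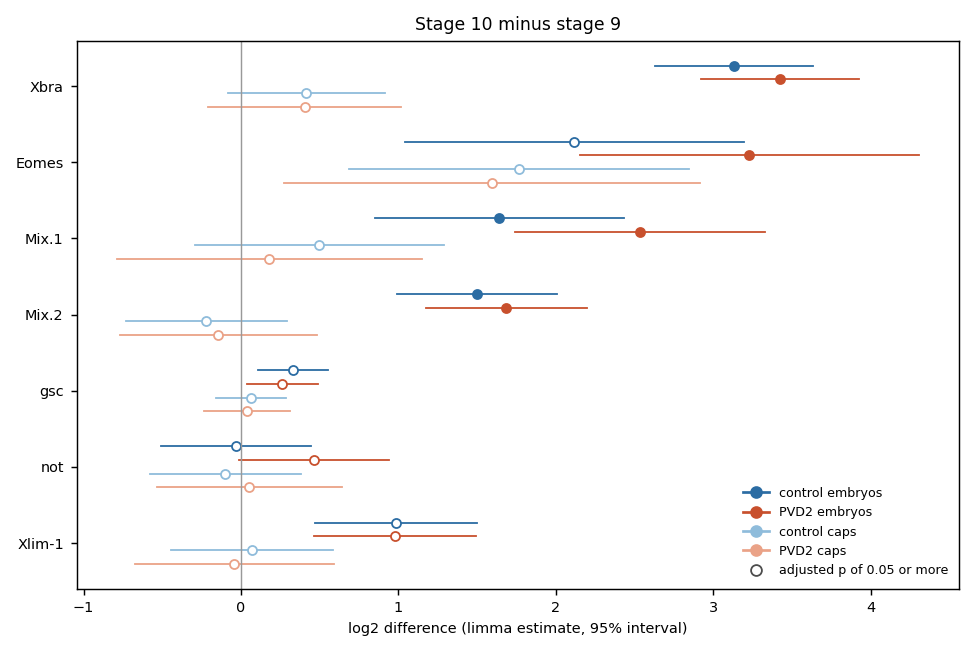
Log2 difference, stage 10 minus stage 9 (horizontal axis), for each probe in control and PVD2 embryos and caps, with 95% intervals from limma; filled points passed an adjusted p of 0.05. Filled points occur only in embryos, at 1.50 to 3.42. The Eomes points of control embryos (2.12) and control caps (1.77) are both open.

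Among the fixed lists, 6 of 15 endoderm factor probes, 4 of 8 organizer factor probes, 3 of 10 secreted organizer probes and 4 of 26 mesoderm factor probes rose in control embryos, while 1 endoderm factor probe (sox7-A, -0.99 ± 0.18, named after its value was seen) and 1 mesoderm factor probe (XHR1-B, -1.81 ± 0.28) fell. The GATA factor gata-5b rose by 3.63 ± 0.21, Cerberus (array name cer), a secreted antagonist of Nodal, BMP and Wnt, by 4.12 ± 0.31 and Xiro3 by 3.33 ± 0.47. In control caps 3 probes of the mesoderm factor list, 1 of the organizer factor list (fkh-5) and no endoderm factor probe rose. The 3 were PV.1, xCAD2 and LOC398164, which is szl, a secreted protein and not a transcription factor. The change was smaller in caps for cer (-4.06 ± 0.43) and gata-5b (-3.44 ± 0.30), with adjusted p = 0.0204 and 0.00753 (limma).

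The last comparison asked what PVD2 changed. Averaged over tissues and stages, Xbra was 1.70-fold lower in PVD2, and it was the only 1 of the 7 probes to pass. Over all probes, 1.16% passed, and 0.979% of all probes passed as lower in PVD2. In the 4 single comparisons none of the 7 passed, beside 0.0140% of all probes in embryos of stage 9, 0.140% in embryos of stage 10, 0.0466% in caps of stage 9 and 0% in caps of stage 10. The first of these shares depends on single arrays and on the processing. In place of 3 probes, 849 passed without control embryo replicate 1 of stage 9 and 57 without replicate 2, 591 with the scanner's ratio and 684 with the processed value table. At an unadjusted p under 0.05, 697 probes passed in caps of stage 10.

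On the same slide, Xbra was lower in PVD2 in 7 of 7 pairs. The differences were -1.30 and -1.39 in embryos of stage 9, -0.74 and -1.37 in embryos of stage 10, -0.19 and -0.47 in caps of stage 9, and -0.42 in caps of stage 10. The mean over the 4 comparisons was -0.77 ± 0.12 (SE, limma, adjusted p = 0.0163). The call was lost with the local background as scanned (-0.70, adjusted p = 0.946), with the ratio given by the scanner software (-1.13, adjusted p = 0.0898) and without control cap replicate 1 of stage 10 (adjusted p = 0.0505). In embryos of stage 9 alone, the difference of -1.34 ± 0.22 (limma, adjusted p = 0.134) passed with the replicate number as a block (adjusted p = 0.0389). The PVD2 effect on Xbra differed between caps and embryos by 0.86 ± 0.23, which did not pass (limma, adjusted p = 1.00). By limma 0 probes of the array passed that comparison, and 718 had an unadjusted p under 0.05.

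Eomes was also lower in 7 of 7 pairs, by -1.89 to -0.18. Its mean difference was -1.13 ± 0.25 (SE, limma, adjusted p = 0.0926), and it passed with the replicate number as a block (adjusted p = 0.0301), which gave 2 calls among the 7 in place of 1. The smallest differences, -0.18 and -0.28, were in embryos of stage 10. Mix.1 was lower in 7 of 7 pairs (-1.31 to -0.05) and Mix.2 in 7 of 7 (-0.39 to -0.16), with means of -0.54 ± 0.19 (limma, adjusted p = 0.395) and -0.29 ± 0.12 (adjusted p = 0.572). In caps, where Mix.1 was dim, its pairs differed by -0.05, -0.31 and -0.38. On the array of PVD2 caps of stage 9 replicate 2, Mix.1 was not well above background. Of all probes, 4.99% were lower in every pair and 2.73% higher. The related copies outside the 7 probes had smaller mean differences, -0.12 ± 0.07 for the dim bra3 and -0.78 ± 0.28 for eomes.L (SE, limma), and neither passed.

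Among the organizer probes, not was lower in 6 of 7 pairs and Xlim-1 in 5 of 7, with means of -0.25 ± 0.11 and -0.22 ± 0.12 (limma, adjusted p = 0.645 and 0.743). The 95% interval of the mean ran from -0.50 to 0.01 for not and from -0.50 to 0.05 for Xlim-1. The gsc probe was too dim for a fold to be given.

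**Figure D4:**
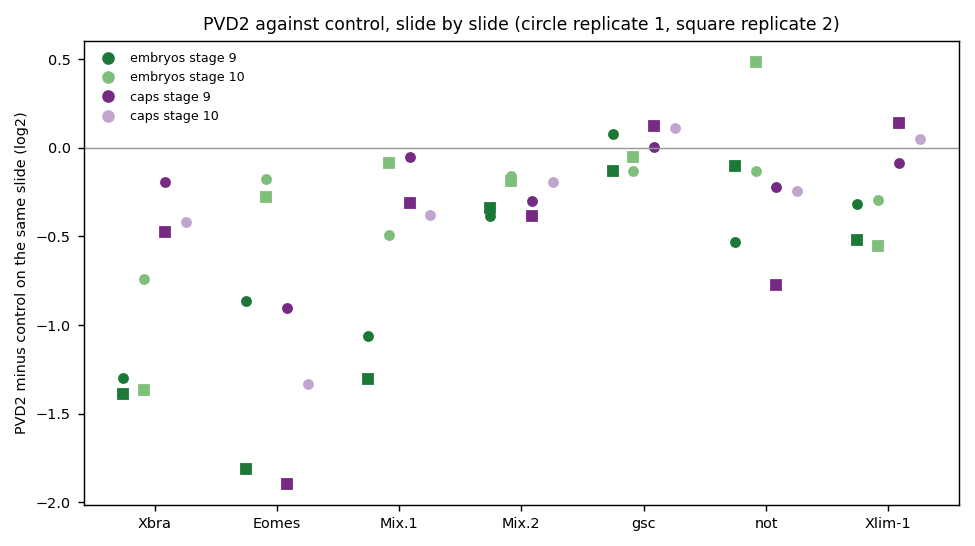
Log2 difference, PVD2 minus control on the same slide (vertical axis), for each probe (horizontal axis) in 7 pairs coloured by tissue and stage. All 7 Xbra, Eomes, Mix.1 and Mix.2 points lie below 0.

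In the mean over the 4 comparisons, PVD2 lowered 2 of 8 probes of the organizer factor list, 2 of 10 secreted organizer probes and 2 of 26 mesoderm factor probes. It also lowered 1 of 15 endoderm factor probes, 2 of 16 Nodal and inducer probes and 3 of 13 FGF and Wnt probes. None of these list probes was raised, and 0.979% of all probes passed as lower. The 2 probes of the organizer factor list were fkh-5 (-1.06 ± 0.10) and LOC397976, irx1 (-0.70 ± 0.07). The forkhead gene fkh-5 was higher in control caps than in control embryos at stage 10, and rose in control caps between stages by 2.09 ± 0.18. Its level at stage 10 thus did not follow the name of its list, and its fall is not a reading of the organizer alone. Also lower was PV.1 of the mesoderm list (-1.30 ± 0.16), a homeobox gene of the ventral side. Lower as well were LOC397948, which is ventx2 (-1.11 ± 0.16), bix3-A (-0.91 ± 0.14) and gdf3-A-prov (-1.24 ± 0.20). The 2 secreted organizer probes were LOC398053, which is admp (-1.88 ± 0.36), and dkk1-A (-0.96 ± 0.13). FGF-8b fell by 1.14 ± 0.13 and FRL1, a coreceptor for Nodal ligands, by 0.91 ± 0.08. The other 2 FGF and Wnt probes were both for spry2 (LOC398313, -1.07 ± 0.16, and LOC398232, -1.07 ± 0.12), so no Wnt probe passed. Some of these probes were also lower in caps. In caps of stage 9 FGF-8b differed by -1.65 ± 0.24, gdf3-A-prov by -1.94 ± 0.38 and bix3-A by -1.51 ± 0.25, none passing there. FRL1 differed by -1.23 ± 0.15 in embryos of stage 10, where it passed. The means are thus not a reading of embryos alone, and the tissue difference of the PVD2 effect passed for no probe. The list medians ran from -0.34 for organizer factors to -0.02 for inducers, beside -0.01 over all probes. Ectoderm markers moved in the same comparison, with 7 of 14 lower and a median of -0.57. Their part in the values above was not tested.

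**Figure D5:**
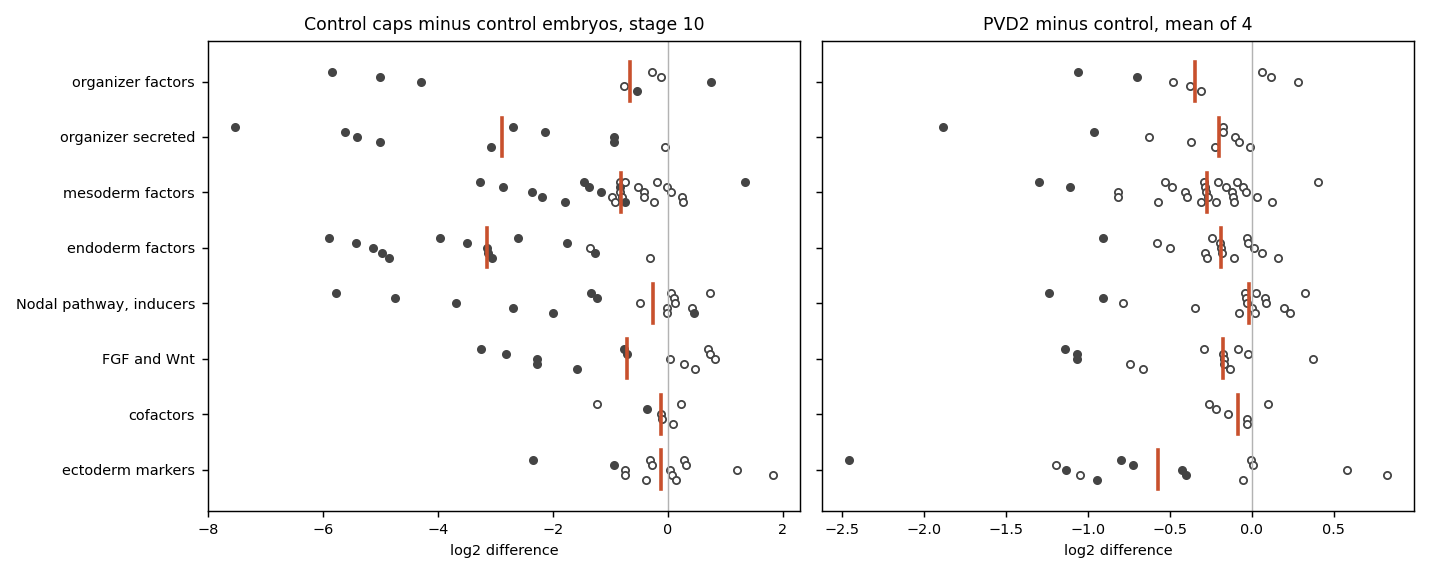
Log2 difference (horizontal axis) of each probe of 8 gene lists, for control caps minus control embryos at stage 10 (left) and PVD2 minus control over 4 comparisons (right); filled points passed an adjusted p of 0.05 and lines are list medians. The endoderm factors have a median of -3.15 at left and -0.19 at right.

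The genes most like each probe were sought by Pearson correlation over 15 arrays among 5870 named probes, as a description, since the arrays share tissue and reference. Xbra was closest to MGC81522 (r = 0.99), cml-A (r = 0.98) and cer (r = 0.97). Eomes was closest to its homeolog eomes.L, array name LOC398065 (r = 0.99), and Mix.1 to Xenf and bix2-A (r = 0.99 for both). Mix.2 was closest to flrt3 (r = 0.99), fkh1-A and Frzb-1 (r = 0.98 for both). For not, FGF-8b led (r = 0.90), and for Xlim-1 the GATA factor gata6.S (r = 0.97). The dim gsc probe reached r = 0.91 with MGC80214. Between the probes themselves, Mix.1 and Mix.2 had r = 0.98 over 15 arrays and 0.97 over 8 embryo arrays, but 0.15 over 7 cap arrays, where both varied little.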

How the data were processed

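RNA was hybridised to Agilent Xenopus arrays in 2 colours with no dye swap. The deposited scanner files hold Cy3 and Cy5 intensity and a log10 ratio, which per the file headers came from Feature Extraction 9.5.1.1, and the authors' table of processed values was deposited on a log10 scale. Its differences between arrays correlated with those of the scanner's ratio at r = 0.962 to 0.998, with column medians of 1.97 to 2.13, so its scale follows that ratio, but its centring is not given in the sources used here. Its column without scanner output was used in 1 alternative only. Quality flags deposited with the spots were used as given.

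Intensities were corrected with normexp (offset 50, limma 3.58.1 in R 4.3.3) and normalized by loess within each array, with 1417 control spots and outlier spots given no weight. Log2 of sample over reference was averaged over spots and fitted with a mean per group, over all groups, with eBayes and Benjamini-Hochberg adjustment over all probes (threshold 0.05). The methods of the study refer to a 3-way ANOVA described elsewhere; limma with the 8 group means was used here.

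One step was set after seeing the data and changes calls. Some spots had a local background region marked as an outlier by the scanner software, up to 65205 units in Cy5 on PVD2 embryos of stage 10 replicate 2, and the normexp mean fitted there was -1090, against -3.87 once such regions were replaced by the array's median background. The replacement was used throughout and touched 35 to 1247 spots per array and channel. The background as scanned is given as an added alternative. With it, 83 probes passed in the mean PVD2 comparison in place of 248.

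The deviations of same-numbered samples from their group means correlated in all 21 pairs of groups (r = 0.500 to 0.815). The reported fit holds no term for replicate number or slide, so its SE and p-values leave this pairing out. Only the alternative with the replicate number as a block took the numbers as pairing samples across all groups. The other alternatives were offset 16, no background correction, median centring, Cy3 alone, the scanner's ratio, the authors' table, leaving out dim probes, keeping flagged spots, slide as a random block, eBayes with trend and robust settings, and each array left out. The fit was tested on simulated data. The simulation, for control caps against control embryos at stage 10, held 21306 probes with 200 changed. The fit recovered 35 of 50 changed by 1, 47 of 50 changed by 2 and 49 of 50 changed by 4 on the log2 scale. It also recovered 48 of 50 changed by -2, with 8 false calls in all. Noise was drawn independently for each array, without the correlated deviations of same-numbered samples. Slide and scan day were not simulated, and the measured comparison had 2238 calls. These counts therefore do not give the error rate on the measured data. The Cy3 levels given for gsc and Xlim-1 were taken after loess and Aquantile scaling and are open to dye bias. The number of arrays limits the precision.

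Probes and gene lists were chosen with earlier results of these data known. All 7 probes are described, though not each in every comparison, and for gsc no fold is given. Candidates for naming were the largest list probes past the threshold, at most 4 per list and comparison. Not all of these candidates are named in the text. Names came from the array files and a RefSeq table of Xenopus laevis, which named 3542 probes. Of 129 list genes, 99 had a probe.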

Additional observations from a re-analysis of the deposited data

Results flagged for a closer look

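The stage change of Xbra differed between tissues. It was smaller in control caps than in control embryos by -2.72 on the log2 scale (limma, adjusted p = 0.0293), which passed a test of the difference itself. This call was lost with the scanner's ratio (adjusted p = 0.199), the processed value table (adjusted p = 0.117) and the local background as scanned (adjusted p = 0.975). As given above, it was also lost when some single arrays were left out. In embryos Xbra went up by 3.13 and in caps the difference was 0.42. No group held enough arrays for a search for single arrays far from the rest.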

How the results depend on the processing

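Of 2611 differences of the 7 probes over all alternatives, 83 changed sign, none of them past the threshold in the reported fit or in the alternative, and 31 of them for gsc. The tissue differences of Mix.1 and Eomes passed under every alternative run. With the local background as scanned, 2 probes passed between caps and embryos at stage 9, 1 between stages in control embryos, 1 in PVD2 embryos, 0 in the mean PVD2 comparison and 0 in the comparison of stage changes. The scanner's ratio gave 0 and 0 in the last 2 of these. The processed value table over 16 arrays gave 2 and 0, with 1 for PVD2 in embryos of stage 9. The replicate block gave 5 between stages in control embryos, 1 for PVD2 in embryos of stage 9, 2 in the mean PVD2 comparison and 2 in the comparison of stage changes, and changed no other count of the 7 by over 1.5 times. Slide as a random block (correlation 0.36) gave the same 5, 1, 2 and 2 and 1 for PVD2 in embryos of stage 10. The filter on dim probes gave 5 between stages in control embryos. The causes were not tested.

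Leaving out each array, the counts ran from 1 to 4 for stages in control embryos, 1 to 5 for stages in PVD2 embryos, 0 to 1 for PVD2 in embryos of stage 9, 0 to 2 for the mean PVD2 comparison and 0 to 2 for the comparison of stage changes. Signs also changed as follows. The stage change in control caps with background as scanned was -0.32 for Mix.1, -0.17 for Xbra and -0.29 for Xlim-1, and -0.0107 for Xlim-1 with Cy3 alone. For Xlim-1 in PVD2 against control, caps of stage 10 gave 0.10 with the processed value table, 0.0762 with the replicate block and 0.0986 with background as scanned, and caps of stage 9 gave -0.0324 with Cy3 alone, -0.0837 with the scanner's ratio, -0.0835 with the processed value table and -0.33 with background as scanned. Its stage change in PVD2 caps was 0.31 with the processed value table, 0.12 with the replicate block, 0.0235 with slide as a random block and 0.14 with background as scanned. For not, Cy3 alone gave 0.0351 in the comparison of stage changes, the processed value table -0.0324 between stages in PVD2 caps, and offset 16 gave 0.0041 between stages in control embryos. Leaving out arrays, not ran from -0.32 to 0.26 between stages in control embryos, -0.20 to 0.0046 in control caps, -0.12 to 0.23 in PVD2 caps, -0.36 to 0.22 in the comparison of stage changes and -0.11 to 0.47 for PVD2 in embryos of stage 10. Xlim-1 ran from -0.0646 to 0.21 between stages in control caps, -0.19 to 0.10 in PVD2 caps, -0.12 to 0.18 for PVD2 in caps of stage 9 and -0.22 to 0.0516 in caps of stage 10, and Eomes from -0.47 to 0.0221 for PVD2 in embryos of stage 10. Median centring moved the median of all probes by up to -0.15. Leaving out the only PVD2 cap array of stage 10 gives no value for comparisons that use it. The dim gsc probe and groups of 2 arrays limit what can be resolved.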
